A study of Rattus norvegicus with 12 samples.

Results

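The muscle miRNAs of the nCounter rat codeset were 7 probes, rno-miR-1, rno-miR-133a, rno-miR-133b, rno-miR-206, rno-miR-208, rno-miR-208b-3p and rno-miR-499. They were taken by name, with any arm ending ignored, from 420 endogenous miRNA probes among 429 probes in all. The nCounter is a hybridisation assay that counts fluorescently barcoded probe and target complexes without amplification, and the study asked how it performs on maternal plasma. Plasma came from 12 female Wistar rats, 6 non-pregnant controls aged 110 to 269 days and 6 pregnant rats aged 103 to 373 days. The pregnant rats had been followed through the oestrous cycle, paired with a male overnight and killed at E14.5, and killing was by CO2 followed by cervical dislocation. Blood was drawn from the heart after death, and RNA was made from 1.5 ml of platelet-free plasma with a rice miRNA, osa-miR-414, added. Each rat gave 1 library. Puncture of the heart after death was shared by all 12 animals, so its part in the muscle miRNA counts could not be tested. Whether the counts stand for muscle miRNAs at rest is therefore not known.

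Muscle miRNAs, often called myomiRs, are made mainly in striated muscle and are widely used as blood markers of muscle injury. miR-1 and miR-133a come from shared transcripts in heart and skeletal muscle, while miR-206 and miR-133b come from another locus that is active in skeletal muscle. miR-208a, miR-208b and miR-499 lie within the myosin heavy chain genes Myh6, Myh7 and Myh7b, so they accompany heart and slow muscle myosin.

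The mature sequences show which members an assay has to tell apart. Apart from the miR-208b probe, the probe names carry no arm, and the arm named for muscle in older miRNA nomenclature was assumed. All 7 were found in RefSeq (build GRCr8), and capitals mark the seed, bases 2 to 8, which pairs with target mRNAs.
miR-1-3p: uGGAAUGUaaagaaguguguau
miR-206-3p: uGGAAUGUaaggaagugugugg
miR-133a-3p: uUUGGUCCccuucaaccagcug
miR-133b-3p: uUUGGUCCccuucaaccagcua
miR-208a-3p: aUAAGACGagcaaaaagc
miR-208b-3p: aUAAGACGaacaaaaggu
miR-499-5p: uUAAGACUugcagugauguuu

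The 7 sequences held 4 seeds. Counting from 1 at the 5′ end, miR-133a and miR-133b differed only by G22A, the first base being that of miR-133a. miR-1 and miR-206 shared a seed and differed by A11G, A21G and U22G. miR-208a and miR-208b also shared a seed and differed by G10A, A16G and C18U. The miR-499 seed ended in another base than that of the miR-208 pair. How far probes for such close members bind each other's target was not tested.

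In GRCr8, miR-1 (chr18:2160339-2160360) and miR-133a (chr18:2157886-2157907) lay on the minus strand within the span of Mib1, with 2431 bases between them. miR-206 (chr9:30590747-30590768) and miR-133b (chr9:30594629-30594650) lay on the plus strand with 3860 bases between them, within the span of the uncharacterised gene LOC120094648. miR-208a (chr15:32395568-32395585) and miR-208b (chr15:32421648-32421665) lay on the minus strand within Myh6 and Myh7. miR-499 (chr3:164570616-164570636) lay on the plus strand within Myh7b.

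Across the codeset, raw endogenous counts ranged from 6969 to 10176 in the controls and from 5163 to 30301 in the pregnant rats. Pregnant replicates 5 and 6, with 24010 and 30301 counts, were the deepest libraries. A background level was set in each rat as the mean + 1 SD of 4 exogenous plant and worm probes (the spike-in left out), and it lay between 12.6 and 32.4 counts. These probes stand in for the negative control probes of the assay, which were not analysed here. The muscle probes together gave 1.33% to 2.55% of endogenous counts in the controls (median 1.80%) and 0.713% to 2.32% in the pregnant rats (median 1.13%). Their raw sums had a median of 150 and a mean of 160 counts in the controls. In the pregnant rats these were 128.5 and 182. The lowest share was that of the deepest library, pregnant replicate 6, and the shares were not read as a difference between the groups.

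Of the 7 members, 3 were above the background level in at least 10 rats. miR-1 and miR-206 each exceeded it in 11 rats and miR-208b in 10 rats, while miR-133a and miR-499 did so in 4 rats each. miR-133b and miR-208 did not exceed it in any rat. Of the 420 endogenous probes, 13.3% exceeded it in at least 10 rats. Passing this level does not by itself show detection, since single exogenous probes reached similar counts. Over the 12 rats ath-miR159a gave 11 to 40 counts and cel-miR-254 gave 10 to 25. The counts of miR-208b, 17 to 36, lay within the range of ath-miR159a, and those of miR-206, 18 to 54, overlapped it. At the mean + 2 SD, miR-1 passed in 10 rats, miR-206 in 7 and miR-208b in 6. Probes differ in how well they capture their target, so counts of different members were not read as relative abundance.

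**Figure D1:**
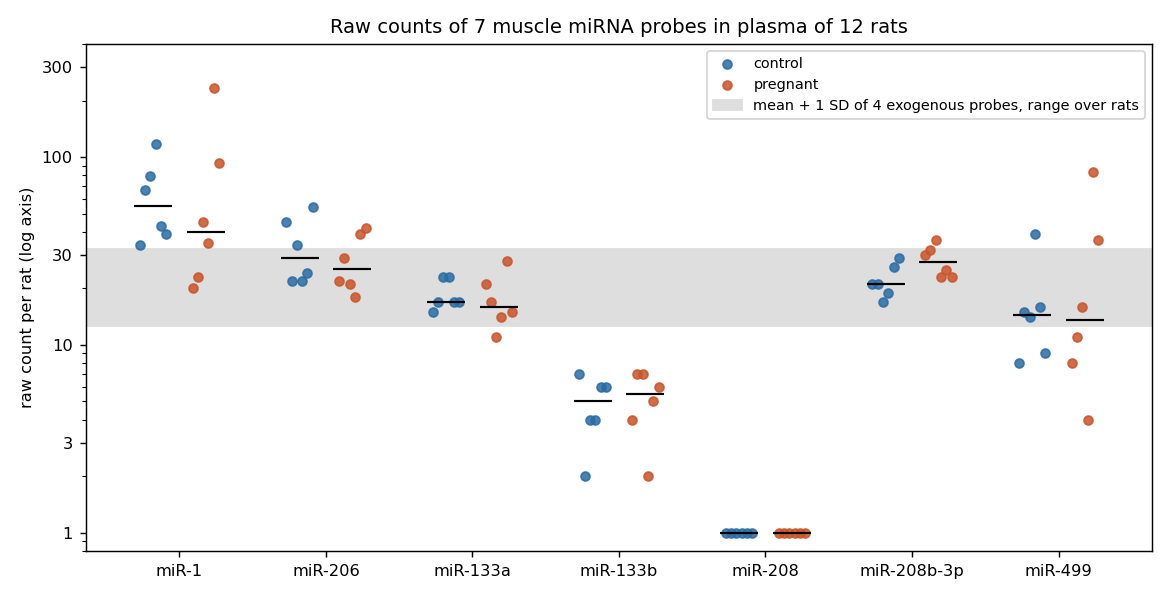
Raw counts (log axis) of the 7 muscle miRNA probes in 6 control and 6 pregnant rats, 1 point per rat, with a black line at each group's median and a grey band for the range over rats of the background level (12.6 to 32.4 counts). miR-1 and miR-499 spread most between rats, miR-133b stayed below the band, and miR-208 stood at 1 count in every rat.

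miR-1, which is shared by heart and skeletal muscle, was the brightest muscle probe by raw count. It gave 34 to 118 counts in the controls (median 55) and 20 to 233 counts in the pregnant rats (median 40). Pregnant replicate 5 was alone above every control at 233 counts, and the remaining pregnant rats were at or below 93 counts, so the groups overlapped. The means were 63.3 ± 32.0 counts in the controls and 74.8 ± 81.9 in the pregnant group (SD, n = 6 each). Without pregnant replicate 5 the pregnant mean was 43.2 ± 29.6 counts (SD, n = 5), on the other side of the control mean.

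The comparison of pregnant with control rats used edgeR's quasi-likelihood test on the raw counts, with trimmed mean (TMM) scaling and Benjamini-Hochberg adjustment. It was run on the 187 probes that reached 10 counts in 6 or more rats, 5 of which were muscle probes. None of the 187 probes was called at an adjusted p under 0.05 (0%), and 11 of them (5.88%) had an unadjusted p under 0.05. No muscle probe was in either set.

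For miR-1 the log2 fold change, pregnant over control, was -0.11 (SE 0.46, 95% interval -1.09 to 0.87, edgeR adjusted p = 0.967). The interval thus reached from about a halving to nearly a doubling, so changes within it were not excluded. Its sign was not stable, since the value was 0.19 without control replicate 4, 0.05 without pregnant replicate 1 and 0.02 without pregnant replicate 2. Without the 2 deepest libraries, pregnant replicates 5 and 6, it was -0.89 with an unadjusted p of 0.0440 and an adjusted p of 0.492 by edgeR. In that fit, chosen after the data had been seen, 8.88% of the probes had an unadjusted p under 0.05. The 2 rats left out had the highest miR-1 counts of the pregnant group.

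miR-133a, the partner of miR-1 on the same transcript, was dimmer and far steadier. It gave 15 to 23 counts in the controls (median 17) and 11 to 28 counts in the pregnant rats (median 16). The highest and the lowest rat were both pregnant, and the controls lay between them. The log2 fold change was -0.18 (SE 0.22, 95% interval -0.65 to 0.28, edgeR adjusted p = 0.870). The 12 counts exceeded the background mean everywhere, but by 1.07 to 3.17 times only.

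miR-206, the miRNA of skeletal muscle that shares the miR-1 seed, gave 22 to 54 counts in the controls (median 29) and 18 to 42 counts in the pregnant rats (median 25.5). The 2 highest rats were both controls, and the lowest was pregnant. The log2 fold change was -0.33 (SE 0.22, 95% interval -0.79 to 0.13, edgeR adjusted p = 0.732). Of the muscle probes past the filter, it had the lowest unadjusted p, 0.149, which ranked 33 among the 187 probes.

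miR-133b, the partner of miR-206, gave 2 to 7 counts in both groups, with medians of 5 in the controls and 5.5 in the pregnant rats. All 12 counts were below the mean of the exogenous probes, so no level could be assigned to it. It did not pass the filter, and in the fit on all 420 probes, where none was called and 4.76% had an unadjusted p under 0.05, its log2 fold change was 0.04 (SE 0.35, 95% interval -0.70 to 0.77, edgeR adjusted p = 0.996).

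miR-208, the miRNA of the cardiac myosin gene Myh6, stood at 1 count in all 12 rats. The value 1 is the lowest in the table, and 14 of the 420 endogenous probes were at it in every rat. No edgeR result is therefore given for miR-208. The probes of miR-24 and miR-30c, which many tissues make, were among those 14, and the exogenous probes averaged 7.25 to 15.8 counts per rat, so a count of 1 was not read as absence of the miRNA.

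miR-208b, whose host Myh7 encodes the slow myosin of muscle and ventricle, gave 17 to 29 counts in the controls (median 21) and 23 to 36 counts in the pregnant rats (median 27.5). The 3 highest rats (30, 32 and 36 counts) were all pregnant and the 4 lowest were all controls, with overlap between. The means were 22.2 ± 4.49 and 28.2 ± 5.34 counts (SD, n = 6 each). The log2 fold change was 0.32 (SE 0.27, 95% interval -0.26 to 0.90, edgeR adjusted p = 0.797). Raw counts with no scaling gave 0.35 with an exact permutation p of 0.0584 (two-sided, unadjusted), and edgeR without pregnant replicates 5 and 6 gave 0.58 with an unadjusted p of 0.0191 and an adjusted p of 0.407. Both of these settings were chosen after the data had been seen. Under TMM scaling the pregnant rats left out had the lowest miR-208b values of their group. The edgeR value of miR-208b was 0.02 with library size scaling, 0.01 in the 8 young rats only and 0.09 without pregnant replicate 3.

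miR-499, carried by Myh7b, varied most. The controls, in replicate order, gave 8, 15, 14, 39, 16 and 9 counts, and the pregnant rats gave 4 to 83 counts (median 13.5). Pregnant replicate 5 (83 counts), control replicate 4 (39 counts) and pregnant replicate 6 (36 counts) stood above the rest, which were at or below 16 counts, and the lowest rat was also pregnant. The log2 fold change was 0.33 (SE 0.51, 95% interval -0.76 to 1.42, edgeR adjusted p = 0.944). It turned to -0.26 without pregnant replicate 5, to -0.64 without pregnant replicates 5 and 6, and to -0.27 with library size scaling.

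Library size scaling moved the median log2 fold change over all 187 probes from 0.05 to -0.32. Under it the values were -0.66 for miR-1, -0.72 for miR-206 and -0.52 for miR-133a, and no muscle probe was called by edgeR.

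**Figure D2:**
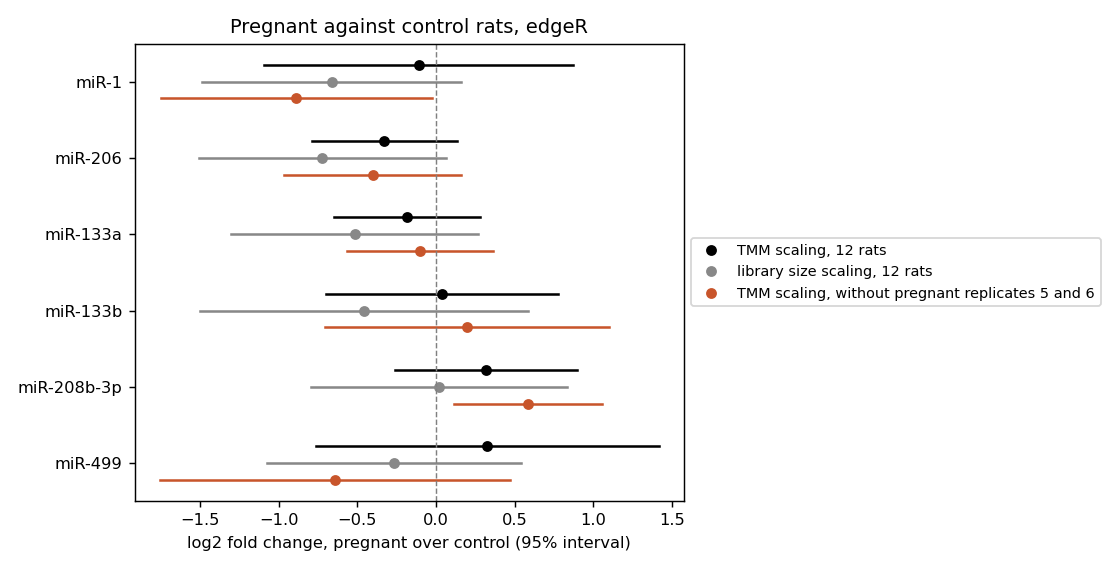
Log2 fold changes of 6 muscle miRNAs, pregnant over control, from edgeR, as points with 95% intervals under TMM scaling of 12 rats (black), library size scaling (grey) and TMM scaling without pregnant replicates 5 and 6 (orange). With all 12 rats every interval crosses 0. Without the 2 deepest libraries those of miR-1 (-0.89) and miR-208b (0.58) do not, at adjusted p of 0.492 and 0.407. This exclusion was chosen after the data had been seen, and 8.88% of the probes in that fit had an unadjusted p under 0.05. Under TMM scaling the 2 rats left out held the highest miR-1 and the lowest miR-208b values of the pregnant group.

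The members thus fell into 2 kinds by their spread. The coefficient of variation over the 12 rats was 86.2% for miR-1 and 102.6% for miR-499, against a median of 37.7% over the 186 endogenous probes with a mean of at least 10 counts. It was 22.5% for miR-208b, 26.0% for miR-133a and 37.5% for miR-206. The variance of the raw counts divided by their mean, which is 1 on average for pure counting error, was 1.23 for miR-133a, 1.27 for miR-208b and 4.35 for miR-206, against a median of 2.22 over the 187 probes past the filter. It was 51.4 for miR-1 and 22.7 for miR-499, and still 17.9 and 8 without pregnant replicate 5. The spread of miR-133a and miR-208b was thus close to that of counting alone, although the rats' endogenous totals differed widely.

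Raw miR-1 counts followed the endogenous total of the rat with r = 0.676 (rho = 0.657, n = 12, permutation p = 0.0167, adjusted p = 0.117 over 7 relations). Without pregnant replicates 5 and 6 this was r = 0.372. For miR-499 the values were r = 0.616 (rho = 0.428, adjusted permutation p = 0.125), and r = 0.01 without the same 2 rats. For miR-133a, miR-206 and miR-208b, r was 0.07, 0.287 and -0.160, and it was 0.217 for the mean of the exogenous probes. None of these relations passed the adjustment, and those of miR-1 and miR-499 rested on the 2 deepest libraries.

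**Figure D3:**
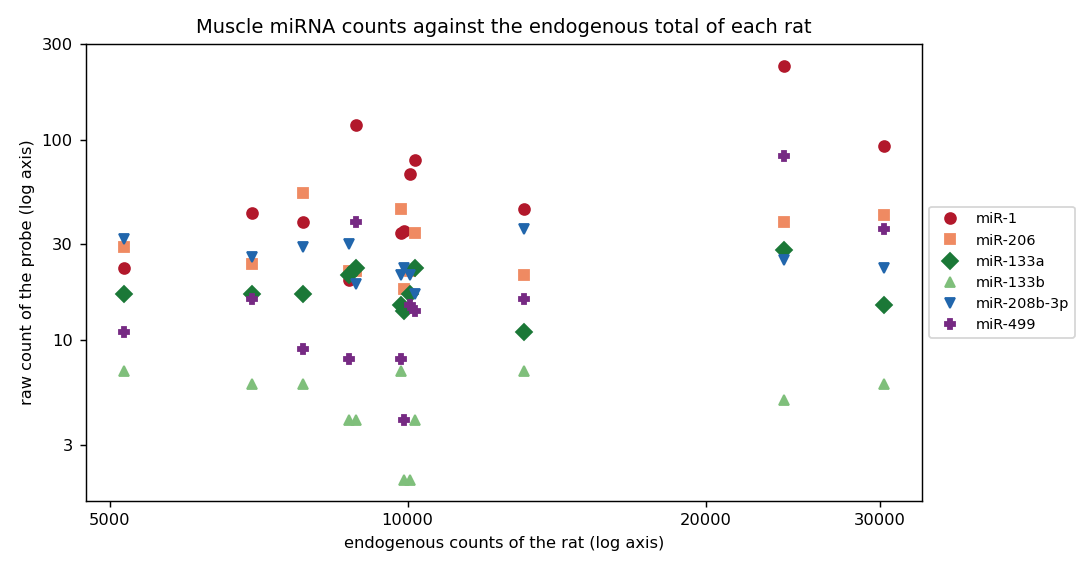
Raw count of each muscle miRNA probe against the endogenous counts of the same rat, both on log axes, with 1 column of points per rat and miR-208 (1 count throughout) left out. The 2 deepest libraries, 24010 and 30301 counts, hold high miR-1 and miR-499 counts, while miR-133a and miR-208b stay at 11 to 36 counts along the whole axis.

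Correlations between members were computed on log2 CPM (counts brought to a common library size) under TMM scaling, for 5 pairs. The pair of miR-1 and miR-499 was added after the counts had been seen, so its p and adjusted p are descriptive and do not stand as a planned test. It gave r = 0.813 (permutation p = 0.00168, adjusted p = 0.00840) and rho = 0.713 (adjusted permutation p = 0.0587) over 12 rats. By raw count, the 3 rats with the highest miR-499 were also those with the highest miR-1, namely pregnant replicate 5, control replicate 4 and pregnant replicate 6. In CPM, pregnant replicate 6 came behind control replicates 2 and 3 for miR-1. Within groups r was 0.907 in the controls and 0.786 in the pregnant rats (n = 6 each, exact permutation p = 0.0153 and 0.0653). Without pregnant replicates 5 and 1, the rats farthest from the median, r was 0.724 (permutation p = 0.0181, adjusted p = 0.0907). With library size scaling r was 0.774, and 0.516 without the 2 farthest rats (permutation p = 0.125), so under that scaling the relation rested on control replicate 4 and pregnant replicate 5.

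miR-1 and miR-133a, encoded 2431 bases apart, gave r = 0.114 and rho = 0.07 over 12 rats (permutation p = 0.726 for r, adjusted p = 0.810). Within the controls r was 0.927 (n = 6, exact permutation p = 0.0111), and within the pregnant rats it was -0.409 (n = 6, exact permutation p = 0.412). Whether these differ was not tested. The within-group values moved with the scaling, to 0.724 in the controls (exact permutation p = 0.0972, n = 6) and -0.015 in the pregnant rats with library size scaling, and to 0.885 and 0.401 with raw counts. Over all 12 rats r was 0.320 with library size scaling and 0.515 with raw counts (permutation p = 0.0871, adjusted p = 0.186 for raw counts). With raw counts r was -0.029 without pregnant replicate 5 and control replicate 4, the rats farthest from the median. The ratio of miR-1 to miR-133a counts ran from 2.27 to 5.13 in the controls and from 0.952 to 8.32 in the pregnant rats, with pregnant replicate 1 at the low end and pregnant replicate 5 at the high end.

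The remaining pairs gave r = -0.379 for miR-1 with miR-206, -0.572 for miR-1 with miR-208b and -0.08 for miR-206 with miR-208b. Their adjusted permutation p were 0.371, 0.131 and 0.810. Within the controls r was -0.842 for miR-1 with miR-206 (n = 6, exact permutation p = 0.0361), -0.249 for miR-1 with miR-208b and 0.096 for miR-206 with miR-208b. Within the pregnant rats these were -0.129, -0.696 and 0.010. The within-group p were not adjusted. CPM values of a rat share its scaling. With library size scaling the pair of miR-206 and miR-208b gave r = 0.678 (adjusted permutation p = 0.0353), with raw counts -0.099, and without the 2 farthest rats 0.491 (library size scaling).

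**Figure D4:**
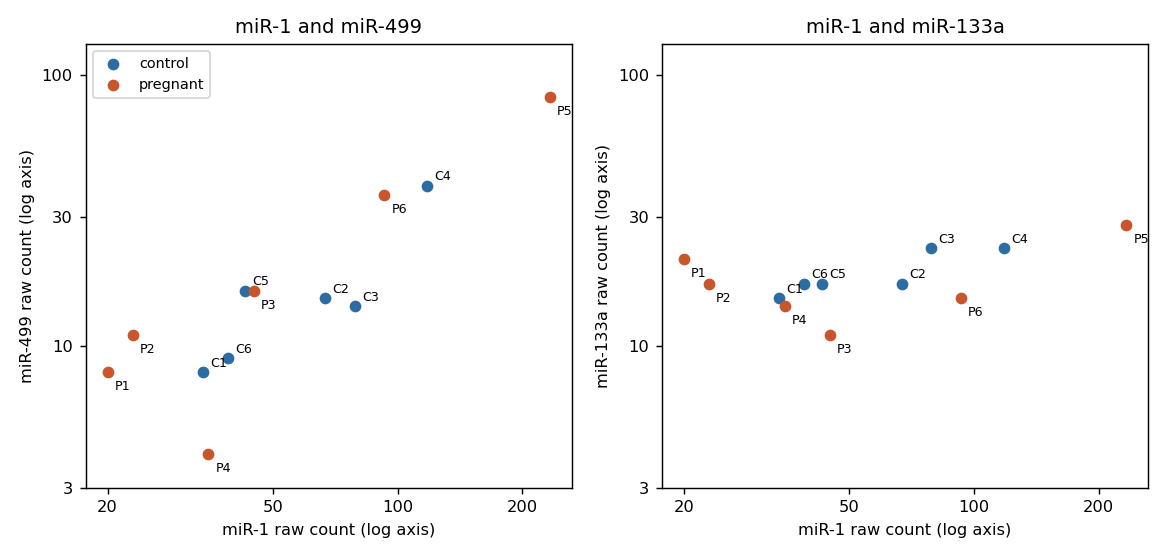
Raw counts of miR-1 against miR-499 (left) and against miR-133a (right) on log axes, 1 point per rat, labelled C for control and P for pregnant with the replicate number. miR-499 rises with miR-1 up to 83 and 233 counts in pregnant replicate 5, whereas miR-133a stays between 11 and 28 counts. On log2 raw counts of the 12 rats, r with miR-1 was 0.867 for miR-499 and 0.515 for miR-133a.

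Among the other 186 probes past the filter, those most like miR-1 by Spearman correlation over the 12 rats were miR-148b-3p (rho = 0.860), miR-301a (0.762), the joint miR-20a and miR-20b-5p probe (0.734), miR-27a (0.734) and miR-378 (0.713). On this list miR-499 ranked 6, tied with miR-378 at 0.713, and miR-133a ranked 81. By Pearson correlation miR-499 gave 0.813, against at most 0.799 for the 5 named probes. For miR-133a the most alike were miR-3563-5p (rho = 0.741), miR-347 (0.615), miR-370 (0.601), miR-3583-5p (0.594) and miR-3552 (0.580), and miR-1 ranked 76. These values describe the 12 libraries, which share depth and scaling.

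Of the markers of other cells, the raw sums of those of red cells were highest in the 3 rats with the highest raw miR-1 and miR-499 counts. The red cell miRNAs miR-451, miR-144 and miR-16 (3 of 4 listed names were on the codeset) summed to 4459 counts in pregnant replicate 5, 3267 in pregnant replicate 6 and 1243 in control replicate 4. In the other 9 rats they summed to 56 to 951 counts. Over groups the sum was 316 to 1243 in the controls and 56 to 4459 in the pregnant rats, and of the 3 markers only miR-16 was at the lowest value of 1, in 2 rats. These raw sums follow depth as well. As a share of endogenous counts, pregnant replicate 5 (4459 of 24010) and control replicate 4 (1243 of 8878) stayed highest. Pregnant replicate 6 (3267 of 30301) fell behind control replicate 6 (951 of 7845). The platelet miRNAs miR-126, miR-191, miR-223 and miR-24 summed to 95 to 208 counts in the controls and 42 to 997 in the pregnant rats, with miR-24 at 1 in all 12 rats. Control replicate 4, at 132, was below 2 other controls for platelet markers. The liver miRNAs miR-122, miR-192 and miR-194 summed to 213 counts in control replicate 4, 1221 in pregnant replicate 5 and 5529 in pregnant replicate 6, while pregnant replicate 3 held most, 5733 counts. Their sums were 146 to 2649 in the controls and 87 to 5733 in the pregnant rats, and of them miR-194 was at 1 in 2 rats. The neuron miRNAs miR-124, miR-9 and miR-128 summed to 11 to 21 counts in the controls and 7 to 18 in the pregnant rats. The part of blood cell or liver RNA in the muscle miRNA counts was not tested.

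Of the miRNAs that are abundant in striated muscle but not particular to it, 8 of 9 listed names were on the codeset as 9 probes, and 4 probes passed the filter. None of these 4 was called by edgeR, and none of them had an unadjusted p under 0.05. All 4 had a positive log2 fold change with a median of 0.66, against 0.05 over all 187 probes. The lists of other cells lay higher too, with medians of 0.76 for 3 of 3 red cell probes, 0.68 for 3 of 3 platelet probes and 1.33 for 2 of 2 liver probes past the filter, all positive and none called. Of these other lists, 1 red cell and 1 liver probe had an unadjusted edgeR p under 0.05, against 5.88% of all 187 probes. No neuron probe passed the filter. Among the 4 striated muscle probes, miR-30d had the lowest p, with 0.82 (SE 0.41, edgeR adjusted p = 0.732). The brightest of the 4, miR-22, had 1.11 (SE 0.66, edgeR adjusted p = 0.732). Outside the filter, the edgeR fit on all 420 probes gave 0.97 for miR-26a and 1.16 for miR-30a. Their unadjusted p were 0.00995 and 0.0209 (adjusted p = 0.835 each). In that fit 4.76% of all probes had an unadjusted p under 0.05, and miR-30e, miR-30b-3p and miR-30c did not. These 4 striated muscle probes are of miRNAs also made in many other tissues. Of the smooth muscle pair, miR-143 had 0.002 and miR-145 had 0.17, and neither was called.

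Age was the other recorded difference between rats. Of the 12 rats, 4 were 200 days or older, 2 in each group. miR-1 gave 20 to 67 counts in the old rats (median 39.5) and 23 to 233 in the 8 young rats (median 61). miR-499 gave 8 to 16 counts in the old rats (median 11.5) and 4 to 83 in the young rats (median 15). The 3 rats high for both miRNAs were all young, and the ranges overlapped. With pregnancy as a term, the log2 difference, old minus young, was -0.70 for miR-1 (SE 0.49, 95% interval -1.75 to 0.35) and -0.86 for miR-499 (SE 0.56, 95% interval -2.05 to 0.33), each with an edgeR adjusted p of 0.728. None of the 187 probes was called for age (0%), and 12 (6.42%) had an unadjusted p under 0.05, none of them a muscle probe. The interaction of age and pregnancy called no probe (0%), with 9 (4.81%) at an unadjusted p under 0.05, and for the muscle probes it was largest in size for miR-208b at 0.80 (SE 0.56, edgeR adjusted p = 0.772).

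Finally, the members were followed through 14 workflows that combine background handling with normalisation. They were rebuilt here with stand-in background probes and normalisers chosen anew, so they are not the original workflows and can give other calls. They use no correction, subtraction or thresholding at the mean, mean + 1 SD or mean + 2 SD of the background probes, each with total RNA or NormFinder normalisers, and the methods' t-test without adjustment. None of the 98 tests of muscle probes was called, against 63 of 5880 tests over all probes (1.07%). The 98 include 14 tests of miR-208, which was at 1 raw count in every rat, so these compare only scaling factors or thresholds. Under subtraction miR-133b held the same values as miR-208. The share of muscle tests called was therefore not read as a result about the members. The count over all probes rose to 294 (5%) without control replicate 1 and to 462 (7.86%) without pregnant replicate 2, with 4 and 3 of the 98 muscle tests called. The exact permutation test on the same values called 1 of the 98, against 1.55% over all probes.

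That call was miR-133a in the workflow that subtracts the mean + 2 SD and uses NormFinder normalisers. The values were 1.85 ± 1.51 in the controls and 0.919 ± 0.188 in the pregnant rats (SD, n = 6 each, two-sided exact permutation p = 0.0238, unadjusted). In this workflow the exact permutation test called 4.29% of all probes and the methods' t-test 1.9%. miR-133a exceeded the mean + 2 SD in control replicate 4 alone, and in the other 11 rats the subtraction left it at the floor of 1 before scaling. In the same workflow miR-208, at 1 raw count in every rat, had a ratio of 0.767 between the groups (exact permutation p = 0.0736, n = 6 each).

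The mean of the pregnant rats was lower than that of the controls in all 14 workflows for miR-1 (ratio 0.701 to 0.978) and miR-206 (0.535 to 0.826), and in 12 for miR-133a (0.496 to 1.09). It was higher in all 14 for miR-208b, with ratios of 1.03 to 4.34. The ratio of miR-208b was 4.34 where mean + 2 SD was subtracted with total RNA normalisers, from 2.18 ± 1.76 and 9.49 ± 14.2 (SD, n = 6 each), and 1.29 with the same normalisers and no correction. For miR-499 the pregnant mean was higher in 10 workflows and lower in 4. For miR-208, at 1 raw count in every rat, it was lower in all 14 (0.767 to 0.988). For miR-133b it was lower in 13 (0.767 to 1.09). A probe at 1 raw count throughout thus took the same direction as miR-1 and miR-206. The directions were therefore not read as results about the members. The workflows reuse the same 12 libraries, so their number adds no replicates.

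**Figure D5:**
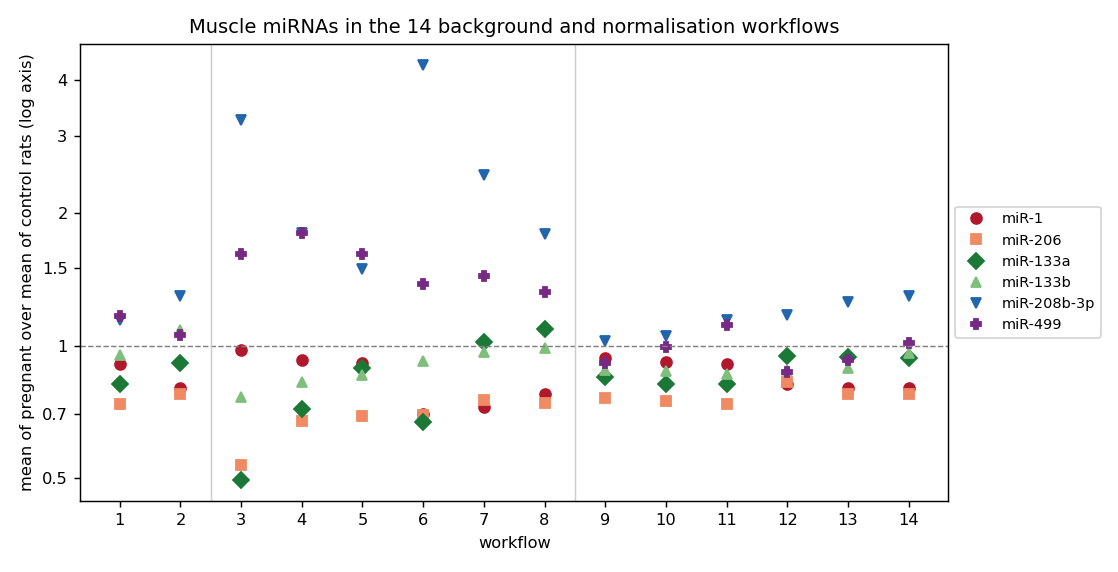
Ratio of the pregnant to the control mean (log axis) for 6 muscle miRNAs in each of 14 workflows: no correction (1 and 2), subtraction (3 to 8) and thresholding (9 to 14). The ratios spread most under subtraction, up to 4.34 for miR-208b and down to 0.496 for miR-133a.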

How the data were processed

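The deposited values were raw nCounter counts, 1 column per rat, made by the authors with the NanoString rat miRNA codeset from plasma RNA. The authors deposited these counts without background correction or normalisation, and the lowest value is 1. Counts of 6 control and 6 pregnant rats were tested with edgeR 4.0.16 (quasi-likelihood test, TMM scaling after a filter of at least 10 counts in at least 6 rats, Benjamini-Hochberg adjustment, threshold 0.05). limma 3.58.1, DESeq2 1.42.0 and exact permutation over 924 assignments were alternatives, and correlations used 100000 permutations. The 14 workflows were rebuilt from the counts with 4 exogenous probes as background and no positive control step. Total RNA normalisers were the 38 probes above the mean + 1 SD in all rats, and NormFinder took the 5 most stable, so both sets were re-derived and are not the authors' own. No 2 libraries of 66 pairs were identical. P-values measure spread between rats, 1 library each, and intervals cover these libraries only. The members and lists were chosen with earlier results of these data known. All members were named, with 5 most alike probes for miR-1 and miR-133a, and the list probes of lowest p and highest mean. Fits were tested on simulated data with known answers, where edgeR missed part of the smaller differences and made false calls when large differences were unbalanced in direction. Endogenous totals were 5163 to 30301 counts.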

Additional observations from a re-analysis of the deposited data

Results flagged for a closer look

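Of 24 sets of 6 rats examined (6 muscle probes, 2 groups, raw counts and CPM), 4 held a rat whose gap to its nearest neighbour was large for the range of its group. The cutoff flags about 1 in 20 sets of normally distributed values. Its rate for skewed counts and CPM, which can be higher, was not tested, so the flags do not show that these rats lie beyond chance. Raw counts and CPM are the same rats on another scale, so the 4 are 2 patterns. miR-1 in pregnant replicate 5 stood at 233 raw counts against 93 in the next pregnant rat, and at 16129 CPM against 6806 CPM. miR-499 in control replicate 4 stood at 39 raw counts against 16 in the next control, and at 4503 CPM against 2043 CPM.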

How the results depend on the processing

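No muscle probe and no other probe was called by edgeR, DESeq2, limma-voom or the permutation test under any of the 26 alternatives, and unadjusted calls over all probes ranged from 3 to 20 against 11: library size scaling gave 19 (1 higher, against 10 of 11 higher with TMM), no filter 20, total RNA normaliser scaling 4, raw counts without scaling 3, limma-voom and permutation of log2 CPM 6 each, and edgeR without pregnant replicate 2 gave 19. TMM with library sizes from before the filter, tried first, gave 12 (7 higher). Library size scaling moved the median log2 fold change of all probes to -0.32. Over the fits without 1 rat, log2 fold changes ran from -0.65 to 0.19 for miR-1, -0.30 to -0.10 for miR-133a, -0.12 to 0.14 for miR-133b, -0.45 to -0.17 for miR-206, 0.09 to 0.43 for miR-208b and -0.26 to 0.80 for miR-499. miR-133a and miR-206 stayed negative and miR-208b positive in all alternatives. miR-133b turned to -0.46 with library size, -0.023 with RLE, -0.13 with total RNA scaling, -0.016 with DESeq2 and -0.26 in young rats only, and miR-499 to -0.27 with library size and -0.64 without pregnant replicates 5 and 6 (the cause was not tested). Muscle calls over the workflows, 0 as reported, were 1 of 98 by exact permutation (1.02%, against 1.55% over all probes), 2 with 5 exogenous probes (2.04% against 5.87%), 4 with 4 mRNA probes added (4.08% against 7.6%), 3 with background correction before normalisation in thresholding (3.06% against 4.4%), and 0 to 4 without 1 rat (4 without control replicate 1, 4.08% against 5%, and 3 without pregnant replicate 2, 3.06% against 7.86%). Rats above background changed for miR-133a from 4 to 12 at the mean and 1 at the mean + 2 SD, for miR-206 from 11 to 7 and for miR-208b from 10 to 6 at the mean + 2 SD, and for miR-499 from 4 to 7 at the mean. The correlation of miR-1 with miR-206 turned to 0.030 with library size and 0.213 with raw counts, that of miR-206 with miR-208b to 0.678 with library size, and that of miR-1 with miR-499 was 0.724 without the 2 farthest rats, no longer past the adjustment. Replicate numbers did not pair the rats (correlations of same-numbered rats -0.31 to 0.25, and 1 of 6 matched best with its own number). With the replicate block edgeR called 0 probes and 0 muscle probes, with 3 unadjusted calls, and log2 fold changes were -0.27 for miR-1 and 0.27 for miR-208b. Low counts limit miR-133b and miR-208 throughout, and their workflow tests are among the 98. Alternatives without pregnant replicates 5 and 6, without scaling, and with earlier library sizes were chosen after seeing the data.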
